A study of Homo sapiens with 19 samples.

Results

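SNORD18A, SNORD18B and SNORD18C are the 3 box C/D small nucleolar RNAs annotated to the ribose-methylated nucleotide 28S-1313 of human ribosomal RNA. They were found by splitting the guide annotation of each site into its names, which gave 3 of 132 guide names and 1 of the 120 sites of the score table. The end counts of the 51 positions around that site, from 28S-1295 to 28S-1345, were taken from a table of 7000 rRNA positions. The files measure the methylated nucleotide and not the guides, so every value below is about the site and none is a level of SNORD18A, SNORD18B or SNORD18C. The 3 genes name the same site in the files, so their separate contributions to it cannot be told apart.

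A box C/D small nucleolar RNA carries a short stretch that pairs with the rRNA. Fibrillarin (FBL), the methyltransferase of the same particle, adds a methyl group to the 2'-hydroxyl of the paired nucleotide at a fixed distance from the guide's D box. Most human guides of this kind are cut out of the introns of other genes, many of which encode ribosomal proteins or translation factors. In the RefSeq annotation of GRCh38.p14, all 3 SNORD18 genes lay inside RPL4, the gene of a protein of the large ribosomal subunit. RPL4 spans chr15:66498015-66504855. SNORD18C lies at chr15:66501252-66501318 and is 67 bases long, SNORD18B at chr15:66502022-66502091 and is 70 bases long, and SNORD18A at chr15:66503245-66503314 and is also 70 bases long. A further guide, SNORD16, lies between SNORD18B and SNORD18A at chr15:66502811-66502910 and is annotated to 18S-484.

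The study perturbed FBL or the guide SNORD127 in Kasumi-1 cells, a long-established line of acute myeloid leukaemia, and measured rRNA methylation by RiboMethSeq in 19 libraries of 11 groups. In RiboMethSeq, RNA is hydrolysed in alkali, and a 2'-O-methyl group protects the adjoining bond, so few fragments end beside a methylated nucleotide. In 7 groups of 2 libraries each the cells carried a knockdown (KD) construct and were given doxycycline at 100 ng/ml, the controls included. Control KD and FBL KD were each profiled without a vector and with an empty one, and FBL KD cells were also given wild-type FBL, the FBLTri mutant or the FBLQua mutant. The other 5 libraries, whose labels name no doxycycline, were the SNORD127 knockout clones C1 and C34, clone C1 with an empty vector, clone C1 with SNORD127 put back, and a control knockout clone.

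The libraries titled FBLTri carry Dual in their column names and those titled FBLQua carry Tri. The titles were followed, so each value given for either mutant rests on them. The descriptions of the FBL KD libraries without a vector read shFBL1 and shFBL2, and those of the vector libraries shFBL4, so the backgrounds may differ in more than the vector. Nothing in the labels says that the 2 libraries of a group were separate cultures, so a test here weighs differences against a spread that could be technical. The FBL transcript and protein were not measured here, nor any marker of the cell line, since all values are rRNA.

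The measure is score C, a fraction that is 1 where no fragment ends beside the site and nears 0 where ends are as frequent as around it. It is an average over all rRNA molecules of a library, so fewer methylated molecules in every cell and fewer cells with methylated molecules cannot be told apart. For 28S-1313 the ends are counted at 28S-1314 and compared with the 6 positions on either side of it. Libraries held 5533150 to 18835537 end counts in all and 5467 to 53746 in the 51 positions. The 4 KD libraries without a vector were the shallowest, with 5467 to 16519 in these positions against 30361 to 40916 in the 10 KD libraries with a vector. The 95% counting interval of the score came from an exact Poisson interval of the site's end count and was not symmetric about the score. It was narrowest in SNORD127 knockout clone C1, at 0.9877 to 0.9962. It was widest in FBL KD without a vector replicate 2, at 0.6325 to 0.7645. One library stood apart: control KD with empty vector replicate 2 had 20.79% of its end counts at one position of 28S rRNA and 34.6% of its counts around the SNORD18 site at the listed position itself.

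28S-1313 was almost fully protected wherever FBL had not been knocked down. The 4 control KD libraries scored 0.985 and 0.997 without a vector and 0.984 and 0.980 with the empty vector, and the 5 SNORD127 libraries scored 0.986 to 0.993. Over these 9 libraries the site's end count was between 1 and 33. After FBL KD without a vector the scores were 0.744 and 0.704, from end counts of 156 and 82. After FBL KD with the empty vector they were 0.571 and 0.510, from end counts of 457 and 553. Every FBL KD library therefore lay below every library without FBL KD, and the pairs with and without a vector did not overlap.

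The group means were 0.991 ± 0.00827 in control KD and 0.724 ± 0.0284 in FBL KD without a vector, and 0.982 ± 0.0029 and 0.541 ± 0.043 with the empty vector (SD, n = 2 each). The difference between FBL KD and control KD was -0.35 over both backgrounds (SE 0.0146; -0.3552 without the library that stands apart), -0.27 without a vector (SE 0.0206) and -0.44 with the empty vector (SE 0.0206). The site was chosen by its scores in these knockdown and re-expression comparisons, so the differences are given as a description and without a test. Over both backgrounds 71.7% of the 120 sites were lower and 1.67% higher at an adjusted p under 0.05 in limma. Those shares were 59.2% lower and 1.67% higher without a vector, and 67.5% lower with the empty vector. On the scale of the deposited scores a fall was thus shared with most sites. Making the median score of every library equal moved every site's difference by 0.118, which left -0.236 at 28S-1313, with 39 sites called lower and 57 higher by limma in place of 86 and 2. Its size ranked 8 of 120 over both backgrounds, where the median difference of all sites was -0.0853, and 7 among the 71 sites of 28S rRNA, where the median was -0.153.

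**Figure D1:**
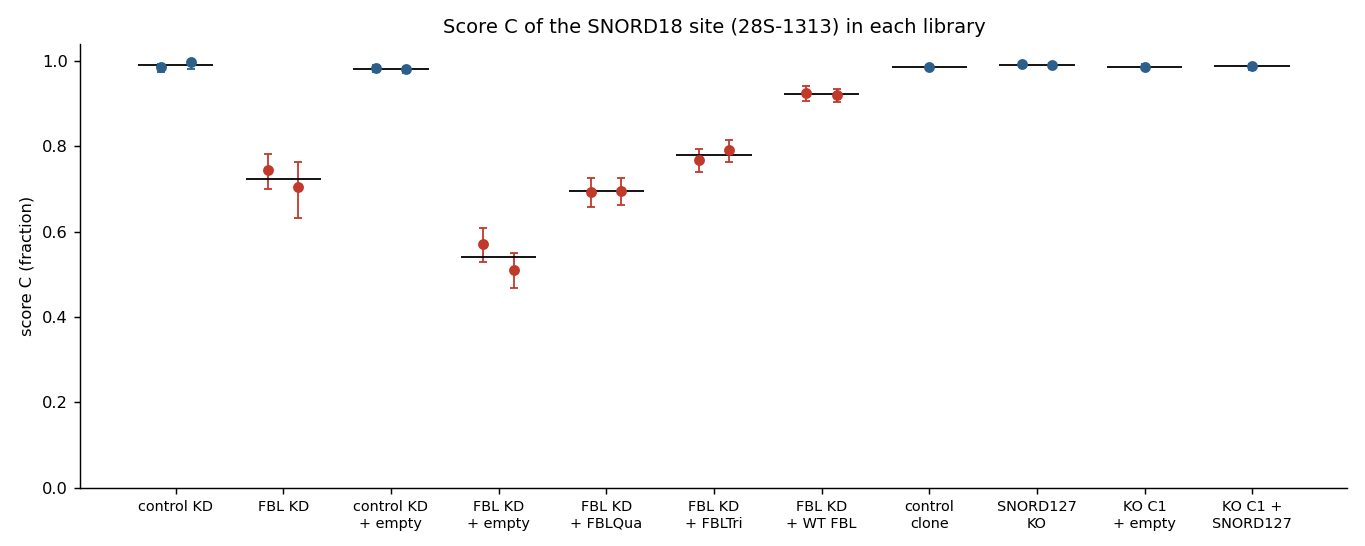
Score C of 28S-1313 (vertical axis, fraction from 0 to 1) in each of the 19 libraries, by group (horizontal axis). Points are libraries, vertical bars the 95% counting interval of the site's end count, and horizontal lines the group mean; red marks FBL KD and blue all other libraries. The 9 blue libraries lie between 0.980 and 0.997, and the FBL KD libraries with the empty vector are the lowest, at 0.510 and 0.571.

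Re-expression in FBL KD cells gave 3 separate levels at 28S-1313. Wild-type FBL brought the scores to 0.925 and 0.919, FBLTri to 0.768 and 0.791, and FBLQua to 0.693 and 0.697. The means were 0.922 ± 0.00417, 0.779 ± 0.0163 and 0.695 ± 0.00276 (SD, n = 2 each). No library of one of these groups overlapped with another or with the empty vector. The site's end counts followed the reverse order, with 76 and 113 for wild-type FBL, 304 and 268 for FBLTri, 333 and 365 for FBLQua and 457 and 553 for the empty vector, in libraries of like depth.

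The difference from the empty vector was 0.38 for wild-type FBL, 0.24 for FBLTri and 0.15 for FBLQua (SE 0.0206 each), again values known when the site was chosen. The 3 comparisons share the empty-vector libraries. With wild-type FBL 57.5% of the 120 sites were higher by limma, and the median difference was 0.0533. With equal library medians 20 sites were called higher and 50 lower by limma, in place of 69 and 1, and 28S-1313 was 0.29 above the empty vector. With FBLTri 16.7% were higher and 20.0% lower, and with FBLQua 7.5% were higher and 11.7% lower, so that most sites were not called with either mutant. On a logit scale the called sites were 5 higher and 5 lower with FBLTri, in place of 20 and 24, and 3 higher and 4 lower with FBLQua, in place of 9 and 14. With the compared groups alone FBLQua had 0 called sites. The difference at 28S-1313 ranked 2 of 120 among gains with wild-type FBL, 1 with FBLTri and 2 with FBLQua. FBLTri exceeded FBLQua by 0.08 (SE 0.0206), which ranked 3 of 120. In that comparison 4 sites (3.33%) were called higher and 6 lower by limma, and 0 in either direction on a logit scale.

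As a share of what the site lost between control KD and FBL KD with the empty vector, wild-type FBL regained 86.4%, FBLTri 54.0% and FBLQua 34.8%. These shares are counted from the empty-vector level. FBL KD without a vector or re-expressed FBL scored 0.744 and 0.704, above both FBLQua libraries (0.693 and 0.697) and below both FBLTri libraries (0.768 and 0.791). Among the 56 sites with a loss of at least 0.1 the median regained shares were 67.9%, 6.21% and 8.72%. The middle 50% of these sites lay between 49.4% and 75.7% with wild-type FBL, between -15.3% and 28.9% with FBLTri, and between -6.24% and 20.1% with FBLQua. 28S-1313 ranked 4, 3 and 3 of 56. Even with wild-type FBL the site stayed 0.06 below control KD with the empty vector (difference -0.06, SE 0.0206). With equal library medians the difference was -0.02 (SE 0.0249), less than its standard error. On the deposited scale 29.2% of sites were called lower, the median was -0.0285, and the site ranked 34 of 120. With equal library medians 13 sites were called lower and 25 higher, in place of 35 and 1.

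**Figure D2:**
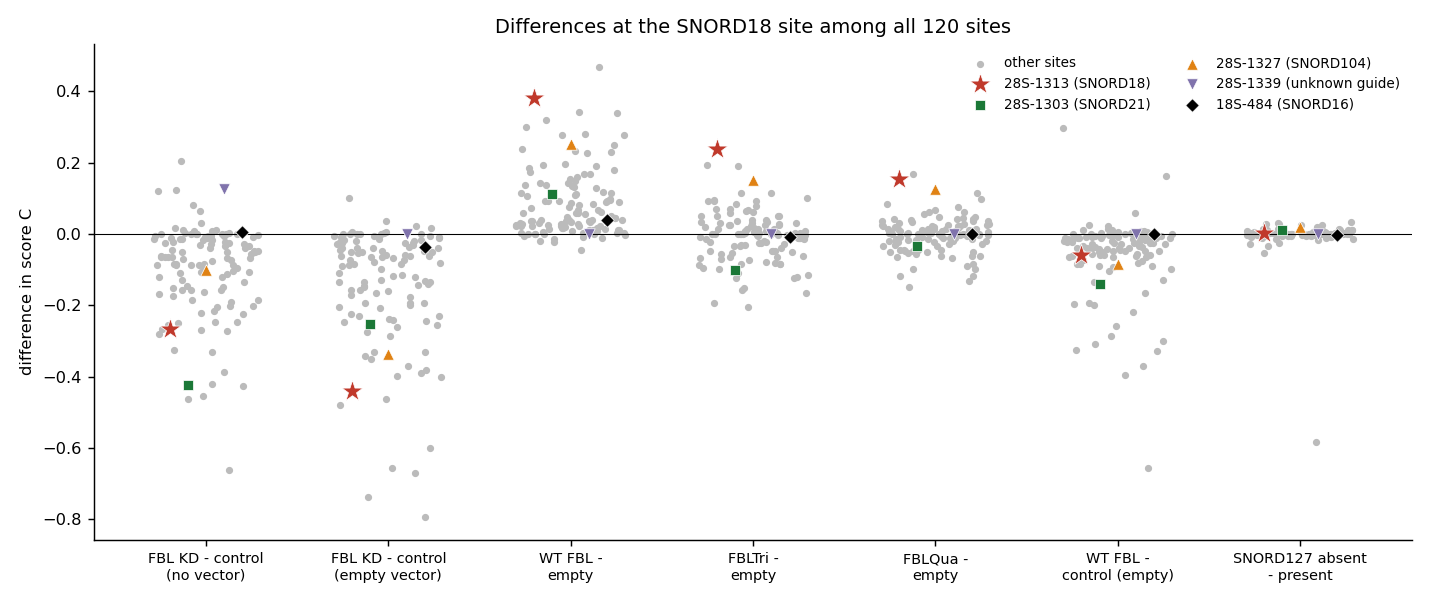
Difference in score C (vertical axis) at each of the 120 sites in 7 comparisons (horizontal axis). Grey points are other sites, the red star 28S-1313, and the coloured symbols the 3 listed sites near it and 18S-484, guided by SNORD16. The star lies at -0.27 and -0.44 in the FBL KD comparisons, at 0.38, 0.24 and 0.15 for the 3 re-expressed proteins, and at 0.0031 for SNORD127.

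The comparisons at 28S-1313 that had not been used to choose it were those of the vector in control KD and of SNORD127, and these were tested. The control KD libraries are also the baselines of the FBL KD differences, so the vector test is not independent of that choice. In control KD the empty vector changed the score by -0.0086 (95% interval -0.0558 to 0.0385, limma adjusted p = 0.905), in a comparison where 8.33% of sites were called. The SE of 0.0206 used a spread pooled over all 14 KD libraries, among them FBL KD with the empty vector (SD 0.043). On the compared groups alone the SE was 0.00545 (limma adjusted p = 0.432). Absence of SNORD127, a guide of another site, changed it by 0.0031 (95% interval -0.0359 to 0.042, limma adjusted p = 1.0). There 0.833% of the sites were called. The SE was 0.0173 with the spread of all 19 libraries and 0.00178 on the compared groups alone. The intervals of both comparisons thus rest on a wider spread than that of the libraries compared. The 3 libraries without SNORD127 scored 0.993, 0.9897 and 0.987 and the 2 with it 0.986 and 0.987, and 3 of the 5 libraries came from clone C1. The control clone was counted as having SNORD127 by its title, although its column is named like a knockout clone. Without it the difference was 0.0025.

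The change after FBL KD with the empty vector minus that without a vector was -0.17 (SE 0.0292), which ranked 14 of 120. It is the difference of knockdown values by which the site was chosen, so it is given without a test. Its size depended on how the score was formed. It was -0.11 (SE 0.0404) when the listed position was left out of the flanking counts. With the 6 positions after the counted one alone, the sign turned (0.18, SE 0.0877). These flank settings were chosen after the counts had been seen.

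The flanks of the site differed between the backgrounds. In the FBL KD libraries without a vector the weighted mean count before the counted position was 5.27 and 5.92 times that after it. The ratio was 2.17 and 2.27 in FBL KD with the empty vector, 2.39 and 4.05 in control KD without a vector and 2.01 and 4.18 in control KD with it. Scored against the positions before it alone, 28S-1313 was at 0.848 and 0.827 in FBL KD without a vector and at 0.687 and 0.647 with the empty vector. Scored against the positions after it alone, it was at 0.197 and 0 without a vector and at 0.320 and 0.200 with the empty vector. FBL KD stayed below control KD with each choice of flank, but the difference over both backgrounds ran from -0.24 with the positions before to -0.79 with those after. What the flank counts contribute to the difference between backgrounds was not tested.

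**Figure D3:**
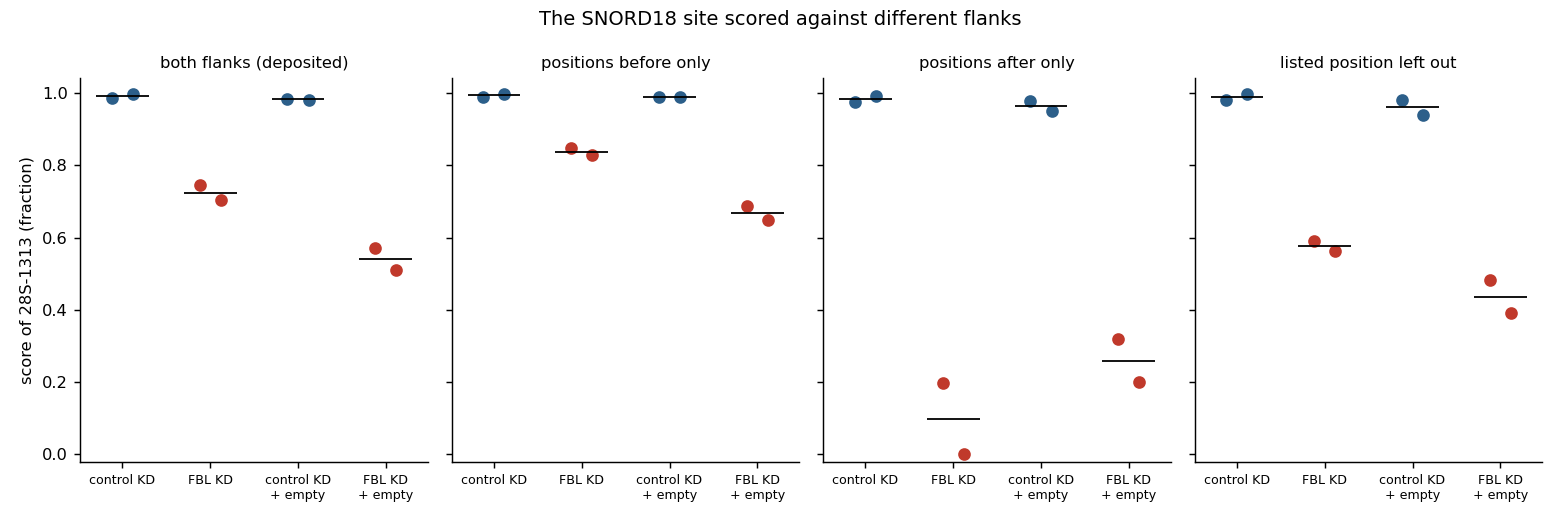
Score of 28S-1313 (vertical axis, fraction) in the 8 KD libraries without re-expressed FBL, by group (horizontal axis), against both flanks, against the 6 positions before or after the counted one, and without the listed position. Points are libraries and lines group means. Blue control KD libraries stay near 1 in all panels, and FBL KD without a vector lies above FBL KD with the empty vector in all panels but that of the positions after, where it has 0.197 and 0 against 0.320 and 0.200.

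The raw profile around the site shows where the ends appeared. At 28S-1314 the share of the window's end counts was 0.0666% and 0.0163% in control KD and 1.39% and 1.50% in FBL KD. With the empty vector it was 0.0531% and 0.108% in control KD and 1.43% and 1.63% in FBL KD. This share is taken over the whole window, which includes the flanks of the score. The end count at 28S-1314 also forms the score by which the site was chosen. The ratios at this position are therefore a description, and their intervals cover counting error only. Summed over both libraries, 238 of 16723 ends in FBL KD against 12 of 22652 in control KD gave a ratio of 26.9 (95% counting interval 15.1 to 52.7). With the empty vector, 1010 of 65806 against 50 of 62608 gave a ratio of 19.2 (95% counting interval 14.5 to 26.1). The control KD library with the lowest share had 1 end at this position.

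Of the 51 positions, 3 had a higher share in both FBL KD libraries than in both control KD libraries in each background. They were 28S-1314, with ratios of mean shares of 34.8 and 19, 28S-1304, where the ends of 28S-1303 are counted, with 3.39 and 4.38, and 28S-1305, with 1.59 and 1.38. The position 28S-1332 had a lower share in both backgrounds, with ratios of 0.602 and 0.21. Without control KD with empty vector replicate 2, which had 9.09% of its window counts at 28S-1332 against 1.26% in replicate 1, the same 3 positions were higher. 14 positions were then lower, and the ratio at 28S-1332 with the empty vector was 0.866. The ratio at 28S-1314 was then 28.9. The ratio at 28S-1314 was the highest of the 51 in both backgrounds. Since its end count forms the score that chose the site, this rank is no separate support. Relative to the empty vector, the mean share at 28S-1314 was 0.172 times as high with wild-type FBL, 0.487 times with FBLTri and 0.667 times with FBLQua. At the listed position itself, next to it, these ratios were 1.03, 1.03 and 1.00. Between FBL KD and control KD the ratio at the listed position was 1.37 without a vector and 0.411 with the empty vector. In control KD with the empty vector its share was 8.74% in replicate 1 and 34.6% in replicate 2.

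**Figure D4:**
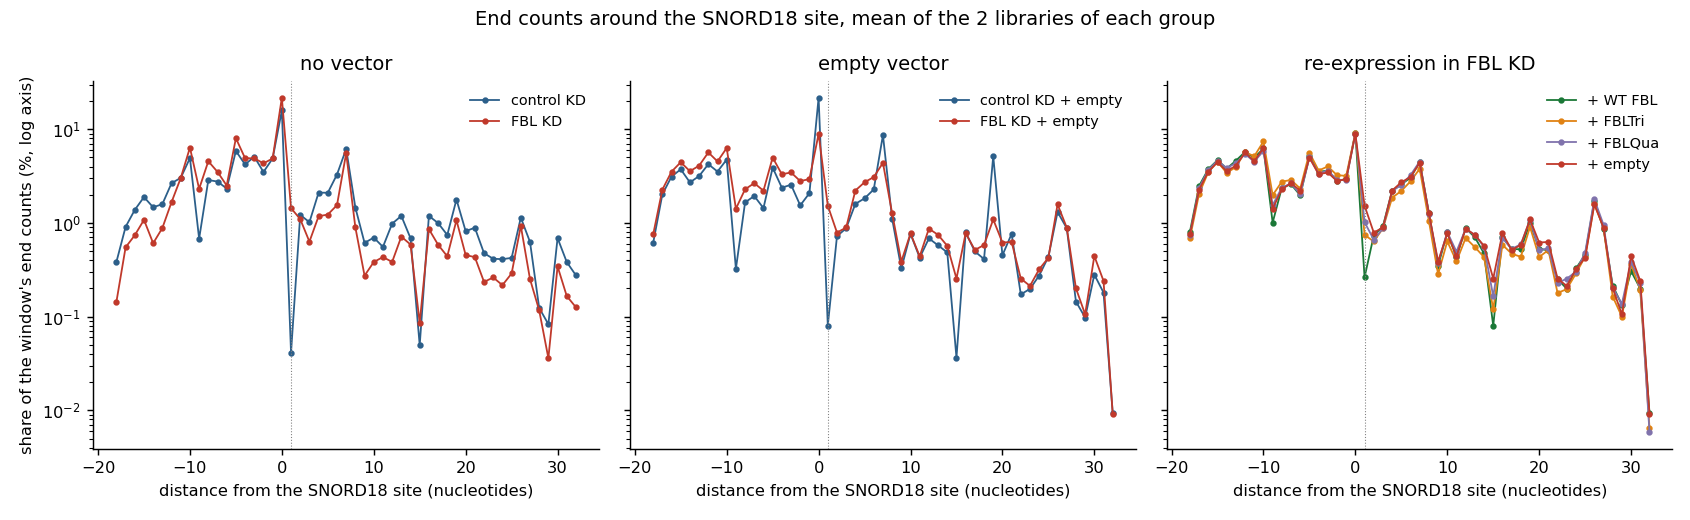
Share of the window's end counts (vertical axis, percent, log axis) at each position against the distance in nucleotides from 28S-1313 (horizontal axis); lines are means of the 2 libraries of a group. The dotted line marks the counted position, at distance 1, where the control KD groups dip to 0.0414% and 0.0805% and the FBL KD groups stand at 1.44% and 1.53%.

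Other listed sites of the same stretch did not share one pattern. 28S-1303, guided by SNORD21 from an intron of RPL5, lies 10 nucleotides before 28S-1313. Control KD scored 0.797 ± 0.0731 there and FBL KD 0.372 ± 0.154, against 0.896 ± 0.0166 and 0.644 ± 0.0215 with the empty vector (SD, n = 2 each). It fell by 0.34 over both backgrounds (SE 0.0449, limma adjusted p = 0.000109), and it was called in all 19 alternatives run for that comparison. With re-expression its means were 0.755 for wild-type FBL, 0.542 for FBLTri and 0.610 for FBLQua. None of these differed from the empty vector by the test (0.11, -0.10 and -0.03, with limma adjusted p = 0.169, 0.28 and 0.826). Its SE of 0.0635 pooled the spread of all KD groups, among them FBL KD without a vector (SD 0.154). On the compared groups alone the SE was 0.0282, 0.0179 and 0.0292. FBLTri was then called lower (limma adjusted p = 0.0398), and wild-type FBL and FBLQua were not called (limma adjusted p = 0.0537 and 0.562). With the positions after alone wild-type FBL was called higher (limma adjusted p = 0.0465).

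28S-1327, guided by SNORD104, lies 14 nucleotides after 28S-1313. Its score went from 0.949 ± 0.00917 in control KD to 0.847 ± 0.0752 in FBL KD, and from 0.957 ± 0.0202 to 0.621 ± 0.011 with the empty vector (SD, n = 2 each). It fell by 0.22 over both backgrounds (SE 0.0223, limma adjusted p = 1.82e-05). Wild-type FBL raised it by 0.25 (limma adjusted p = 0.000129), FBLTri by 0.15 (limma adjusted p = 0.00551) and FBLQua by 0.13 (limma adjusted p = 0.0256). With FBLTri a logit scale ended the call (limma adjusted p = 0.152). The FBLQua call was lost in 5 of 15 alternatives, among them those without replicate 1 or replicate 2 of FBL KD with empty vector and without replicate 1 of FBLQua. The fall was larger with the empty vector than without a vector (difference -0.23, SE 0.0445, limma adjusted p = 0.00537), a call that ended on a logit scale (limma adjusted p = 0.0578). In that comparison 25.0% of sites were called lower and 5.0% higher. With equal library medians 12 sites were lower and 19 higher, in place of 30 and 6. The order of the 4 group means in FBL KD, from wild-type FBL at 0.873 over FBLTri at 0.774 and FBLQua at 0.748 to the empty vector at 0.621, was that of 28S-1313. The FBLTri and FBLQua libraries of 28S-1327 overlapped, at 0.784 and 0.764 against 0.774 and 0.721.

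28S-1339, listed with an unknown guide, lies 26 nucleotides after 28S-1313. It scored 0 in every library but FBL KD without a vector, where it had 0.0555 and 0.196 from end counts of 14 and 28. Negative scores are set to 0, so methylation of this site is not seen in the other libraries. 28S-1339 was called higher after FBL KD over both backgrounds by 0.06 (limma adjusted p = 0.0443), and in 10 of 19 alternatives. With scores not set to 0 the difference was 0.3987. The difference was 0.02774 without replicate 1 of FBL KD and 0.09809 without replicate 2, and 0 with the positions after the counted one alone or without the listed position in the flanks. No other listed site had its counted position within the flanks of 28S-1313. The flanks of 28S-1303 and 28S-1313 share the positions 28S-1308 to 28S-1310, so these 2 scores are not independent.

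The other guide from the RPL4 introns went with a different result. 18S-484, the site of SNORD16, scored 0.966 ± 0.0165 in control KD, 0.972 ± 0.0403 in FBL KD, 0.951 ± 0.0361 in control KD with the empty vector and 0.915 ± 0.0147 in FBL KD with it (SD, n = 2 each). Its difference over both backgrounds was -0.02 (SE 0.0146, limma adjusted p = 0.349), and that with wild-type FBL was 0.04 (limma adjusted p = 0.156). FBLTri and FBLQua gave -0.01 and -0.0011 (limma adjusted p = 0.818 and 1.0). When the median scores of all libraries were made equal, the sign over both backgrounds turned and the site was called higher, at 0.10. The sign with wild-type FBL turned as well, and the site was called lower, at -0.06 (limma adjusted p = 0.033). End counts at this site were low in the libraries without a vector, at 0 and 4 in FBL KD and 2 and 3 in control KD.

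Sites of guides hosted in ribosomal protein genes, with the host taken from background knowledge, numbered 31 beside 28S-1313. After FBL KD over both backgrounds 24 were called lower and none higher by limma, with a median difference of -0.0877 against -0.0853 over all 120 sites. Beside 71.7% of all sites called lower, this share is near the background. With wild-type FBL 20 were called higher (median 0.0594), beside 57.5% of all sites. With FBLTri 6 were higher and 8 lower, beside 16.7% and 20.0% of all sites. With FBLQua 1 was higher and 7 lower, beside 7.5% and 11.7%. 28S-2388, a site of SNORD68 from RPL13, fell by 0.59 (limma adjusted p = 1.14e-08), and 28S-4020, of SNORD102 from RPL21, by 0.41 (limma adjusted p = 2.38e-07). At the other end were 18S-468, of SNORD83A from RPL3, at 0.00042 (limma adjusted p = 0.994) and 18S-462, of SNORD14A and SNORD14B from RPS13, at -0.0049 (limma adjusted p = 0.709).

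Several sites have 3 or more annotated guides, as 28S-1313 has. Of the 8 others 6 were called lower after FBL KD over both backgrounds by limma, with a median of -0.088 and differences from -0.24 at 28S-3680 (SNORD88A, SNORD88B and SNORD88C) to -0.0233 at 18S-601 (SNORD103A, SNORD103B and SNORD85). Of all sites 71.7% were called lower. 5 of the 8 were called higher with wild-type FBL, beside 57.5% of all sites. With FBLTri 3 were called higher and 1 lower, beside 16.7% and 20.0% of all sites, and the lower one was 28S-3878 (SNORD12, SNORD12B and SNORD12C) at -0.11. With FBLQua 0 were called in either direction by limma, and 28S-3878 was at -0.0476 (limma adjusted p = 0.0544). 28S-4937, one of the 2 that were not called after FBL KD, is annotated to H/ACA guides, which direct pseudouridylation and not methylation.

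The 5 sites whose scores varied most like those of 28S-1313 over the 19 libraries were 28S-2411 (SNORD6), 28S-1509 (SNORD2), 18S-1031 (SNORD59A and SNORD59B), 28S-2824 (SNORD34) and 28S-3680. Their Pearson r was 0.99, 0.988, 0.988, 0.971 and 0.970, against a median of 0.723 over the other sites. The same 5 sites led over the 14 KD libraries, with r from 0.987 to 0.959. The points share their libraries and the FBL KD groups, so r is only a description of likeness, and none of the 5 shares flanking positions with 28S-1313. Their span was narrower. 28S-1509 ran from 0.9945 in control KD to 0.629 in FBL KD with the empty vector, and 18S-1031 from 0.996 to 0.877. In all 5 the mean with FBLTri lay above that with FBLQua and both below that with wild-type FBL. At 28S-3680 FBLTri gave 0.782 and FBLQua 0.753, against 0.713 with the empty vector and 0.939 with wild-type FBL.

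**Figure D5:**
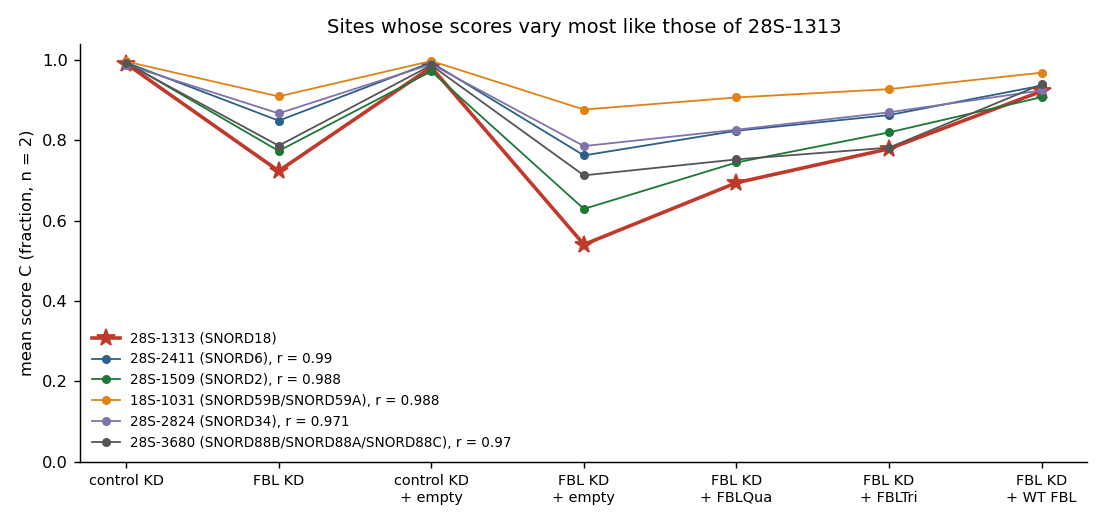
Mean score C (vertical axis, fraction, n = 2 libraries) of 28S-1313 and of the 5 sites with the highest Pearson r to it over 19 libraries, in the 7 KD groups (horizontal axis). 28S-1313 has the lowest mean of the 6 sites in FBL KD with the empty vector, at 0.541, and the sites draw together with wild-type FBL, where they lie between 0.908 and 0.969.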

How the data were processed

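RiboMethSeq data of 19 Kasumi-1 libraries were used. Per the labels' protocols, 100 ng of total RNA was hydrolysed at 95 °C for 12 min to fragments near 30 nucleotides. The submitters' processing notes name cutadapt and Bowtie2; their versions, the rRNA reference and the fragment end counted were not given in the sources used here. End counts deposited by the authors cover 7000 rRNA positions and are whole numbers, not normalized. Score C was deposited for 120 sites as a fraction. The formula, 1 minus the count 1 position after the site over the mean of both weighted flank means (6 positions a side, weights from 1 to 0.5, negative values set to 0), gave 2280 of 2280 deposited scores within 1e-09.

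Scores were fitted with limma 3.58.1 in R 4.3.3 (a coefficient per group, variance trend, two-sided, Benjamini-Hochberg over 120 sites, threshold 0.05). No p is given at 28S-1313 for the knockdown and re-expression comparisons that chose it, nor for the planned test of the difference between backgrounds. That difference is built on the same values. KD comparisons used the 14 KD libraries and the SNORD127 comparison all 19. The fit was tested on simulated data. Counting intervals are exact Poisson intervals at 95% for the site's end count with the flanks held fixed. Ends counted without molecular identifiers need not come from separate molecules, so the intervals cover counting error only. No replicate pair agreed within sampling noise (chi-square per degree of freedom 2.22 to 248.0 over the window). Gene positions came from RefSeq, GRCh38.p14.

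The site, its neighbours and the site lists were chosen with earlier results of these data known. Named sites were those of SNORD18 guides, other listed sites from 18 nucleotides before to 32 after, the SNORD16 site, the 5 sites most alike by Pearson r, and the 2 most and 2 least changed sites of ribosomal protein hosts. Alternatives were fits without the variance trend or on the compared groups alone, a logit scale, flanks of 2 positions, flanks without other listed sites, scores not set to 0, equal library medians, each replicate left out and a replicate block; 3 flank choices and the window without one library were added after seeing the data. Python 3.11.15, pandas 2.3.3, numpy 2.4.6, scipy 1.17.1 and matplotlib 3.10.9 were used.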

Additional observations from a re-analysis of the deposited data

Results flagged for a closer look

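The change after FBL KD was flagged for unlike sizes in the vector backgrounds at 2 sites of the stretch. At 28S-1313 the change with the empty vector minus that without a vector was -0.1745. With the positions after the counted one alone the sign turned (0.1822). The flag came from a test on the knockdown values that chose the site. It is therefore no support at 28S-1313, where only the size is given. At 28S-1327, the SNORD104 site 14 nucleotides on, it was -0.2333 (SE 0.0445, limma adjusted p = 0.00537), a call that ended on a logit scale (limma adjusted p = 0.0578). End counts at 28S-1327 were 7 and 6 in FBL KD without a vector and 78 and 90 with the empty vector. Their part in the result was not tested. At 28S-1303 the same difference was 0.17 with the opposite sign and was not called (limma adjusted p = 0.188). Without replicate 1 of FBL KD it was 0.2809 and called (limma adjusted p = 0.00773), and without replicate 2 it was 0.06245. With the positions before alone it was 0.4027 and called (limma adjusted p = 0.0484), and with those after alone -0.01294. The adjusted p over its alternatives ran from 0.00773 to 0.932.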

How the results depend on the processing

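Of 143 alternatives of the differences at 28S-1313, 118 kept their direction, and their call or size. Part of this count was fixed in advance. The size could not move in fits on the compared groups alone, without the variance trend or with a replicate block. With scores not set to 0 and with flanks without other listed sites it equalled the main value. For the difference between backgrounds the count used a call that is not given here. FBL KD minus control KD over both backgrounds was -0.310 with flanks of 2 positions. With equal library medians it was -0.236, wild-type FBL minus empty vector 0.2857, wild-type FBL minus control KD -0.01816 and the empty vector in control KD 0.01109, with the sign turned (limma adjusted p = 0.84). With the positions before alone the FBL KD difference was -0.2386 and those of wild-type FBL, FBLTri and FBLQua from the empty vector 0.2772, 0.183 and 0.1128; FBLTri minus FBLQua was 0.07011 and wild-type FBL minus control KD -0.04369. With the positions after alone the FBL KD difference was -0.7937, those from the empty vector 0.6106, 0.3209 and 0.2394, and wild-type FBL minus control KD -0.092. Without the listed position they were -0.4674, then 0.4682, 0.2957 and 0.1895, with 0.1062 for FBLTri minus FBLQua and -0.05548 for wild-type FBL minus control KD. The difference between backgrounds was -0.178 on the logit scale, 0.1822 with the positions after and -0.1124 without the listed position, and leaving out each replicate gave -0.2049 to -0.1441. The causes were not tested. Whether the replicate numbers pair the libraries was not settled. The correlation of deviations ran from -0.226 to 0.694 over 21 pairs of groups (median 0.159), with 12 over 0.1. The replicate block left the difference between backgrounds at -0.1745 and did not change the call of the vector comparison in control KD. Counts of called sites also moved. FBLTri minus FBLQua had 4 sites higher and 6 lower, 0 and 0 on the logit scale, 1 and 0 with the compared groups alone, and 2 and 3 with the replicate block. The empty vector in control KD had 1 and 9, 2 and 29 on the logit scale, and 0 and 0 with the compared groups alone. The difference between backgrounds had 6 and 30, and 7 and 8 on the logit scale. Depth limits mostly the KD libraries without a vector, where control KD had 11 and 1 ends at the site.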
